A study of Arabidopsis thaliana with 8 samples.

Results

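The genes described here are those whose transcripts were lower in systemic leaves than in control leaves of wild-type Arabidopsis thaliana plants. They were chosen by their wild-type values on an Affymetrix ATH1 array, a chip that measures each transcript with a small group of probes called a probe set. A probe set was a member when its mean log2 level in wild-type systemic leaves was at least 1 below that in wild-type control leaves, a 2-fold difference, and when both systemic arrays lay below both control arrays. Of 22746 probe sets that are not array controls, 145 met the first condition and 142 met both. The genes EXPA8, XTH33, SCPL34, CYP71B23 and AT3G07010, with 5 probe sets, were left out, which leaves 137 members (0.602% of all). The gene table gives exactly 1 gene to 69 members, which stand for 68 loci, and several genes to 2. The other 66 members are not named by that table and are called by their probe set.

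The study compared 4 groups of leaves, each with 2 arrays. They were systemic leaves of dTLec, control leaves of dTLec, systemic leaves of the wild type (Col-0) and control leaves of the wild type. The plants called dTLec are the SALK T-DNA insertion line dTLec1-1, a single line for which the labels name no disrupted gene, so the target transcript could not be checked. All plants were 5 weeks old and grew in short days of 10 h light at 21 °C. All had also been given vernalization, a cold treatment, for 2 days at 4 °C. Some leaves of each rosette were crushed at the midvein with tweezers, and the sampled leaves were collected for RNA after 2 h. Systemic is the usual word for the unwounded leaves of a wounded plant, and the labels do not say whether control leaves came from other, unwounded plants. Nothing in the labels says whether replicates were separate plants or pools, so the spread behind every p-value is that of these arrays alone and could be technical.

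Wounding a leaf sets off electrical, calcium and hormone signals that reach distant leaves through the vasculature, and jasmonate is the hormone best known for carrying the response there. Most attention goes to the defence genes that are induced. The opposite arm of the response takes in genes for growth, cell walls, receptors and housekeeping proteins whose transcripts become scarcer while defence is engaged. A lower level can reflect less transcription or faster decay, which an array does not separate. In bulk tissue, fewer cells of one type and less RNA per cell cannot be told apart either.

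The tissue matched its label as far as named markers allowed. Of 48 markers listed for 10 cell types or organs, 3 were measured by name. The leaf mesophyll genes RCA and LHCB4.2 had group means between 13.59 and 13.87 on the log2 scale in all 4 groups, near the top of the array's range of 3.24 to 14.28. PYK10, a glucosidase gene of roots, had group means between 4.27 and 4.29.

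The wild-type difference of the members was mostly modest and was led by a few probe sets. The log2 difference between wild-type systemic and control leaves had a median of −1.16, or 2.23-fold lower, and reached −3.01 at the extreme. It was at or below −1.5 for 19 members, between −1.5 and −1.2 for 37 and above −1.2 for 81. These values chose the members and carry no test. In the model fitted to all probe sets (limma, Benjamini-Hochberg adjusted p under 0.05), 126 of the 137 also passed in the wild type, where 6.03% of all probe sets passed as lower. Nothing is read from that count, since it uses the same arrays as the choice. At the edge of the rule, the last probe sets inside had wild-type differences of −1.0002, −1.0036 (AT1G13650) and −1.0051. The first outside had −0.9992 (AT3G62550), −0.9962 (AT5G12440) and −0.9955. Membership depended on single arrays: 63 of the 137 stayed members with any 1 wild-type array left out. The rule chose 207 probe sets without wild-type control replicate 1. Another 3 probe sets were lower by 1 or more on average, but their arrays overlapped.

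The members were not rare transcripts. Their mean log2 level over the 8 arrays had a median of 7.26, against 5.85 for all probe sets, and 128 of 137 lay above the median of all. The wild-type arrays that chose the members enter this mean. A probe set near the floor can hardly fall by 1, so the choice itself favours higher levels. Their named loci were spread over the 5 nuclear chromosomes, with 21 on chromosome 1, 8 on 2, 15 on 3, 8 on 4 and 16 on 5. STOMAGEN and AT4G12980 are direct neighbours in the TAIR10.1 gene table, and 1 gene lies between AT2G36410 and AT2G36430. One locus, AT5G50740, was measured by 2 member probe sets.

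In dTLec, whose arrays had no part in the choice, the members were lower in systemic leaves too, but less so. Their median log2 difference was −0.48, or 1.40-fold lower, against a median of −0.01 over all probe sets. Of the 137 members, 127 had a negative difference (92.7%, against 52.5% of all probe sets). Both dTLec systemic arrays lay below both dTLec control arrays for 104 members (75.9%), which held for 25.4% of all probe sets. For 32 members the dTLec arrays overlapped, and for 1 both systemic arrays lay above both control arrays. An unadjusted p under 0.05 with a lower level was reached by 85 members (62.0%, against 8.95% of all probe sets).

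The dTLec difference was not confined to 1 array. After subtracting each probe set's mean over the 8 arrays, the median of the members was −0.08 and −0.19 on the dTLec systemic arrays, against 0.27 and 0.43 on the dTLec control arrays. It was −0.64 and −0.75 on the wild-type systemic arrays, against 0.44 and 0.57 on the wild-type control arrays. Both dTLec systemic medians were below both dTLec control medians. The order of the wild-type arrays was fixed by the choice of members, which also favours wild-type extremes on either side of dTLec. Between arrays of replicate number 1 the median dTLec difference was −0.33, and between those of number 2 it was −0.66. The same subtraction gave medians of −1.09 and −1.35 in the wild type. The difference between replicate numbers had been removed and the numbers were not taken as pairs. These medians are therefore descriptions and not separate replications.

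**Figure D1:**
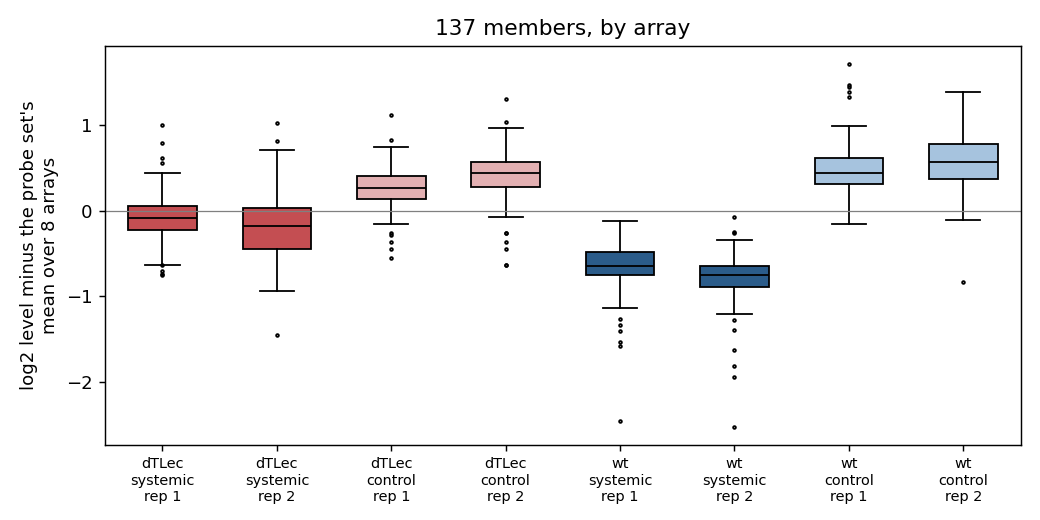
Boxes show the 137 members on each of the 8 arrays, as the log2 level minus the probe set's own mean over all arrays (box, quartiles; line, median; whiskers, 1.5 times the box height). The medians of the dTLec systemic arrays are −0.08 and −0.19, between those of the wild-type systemic arrays and those of the control arrays.

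Few single members passed the test in dTLec. In limma's moderated test with adjustment over all probe sets, 9 of 137 members passed as lower (6.57%) and none as higher (1 at an unadjusted p under 0.05), where 0.18% of all probe sets passed as lower (41 probe sets). The 9 members are 22.0% of those 41. Of the 4 probe sets in the whole table (0.0176%) that were lower by 1 or more in dTLec without overlap, 3 were members. The difference between replicate numbers had been removed from the deposited values, so these p-values are too small. Adding replicate number to the model as a block, which allows for the removal, left 1 member, 247444_at, and that was the only lower call among all probe sets (0.0044%). The count of 9 also rested on single arrays. It fell when any 1 dTLec array or either wild-type systemic array was left out, and rose without either wild-type control array. Members were chosen anew where a wild-type array was left out. The count over all probe sets, 41 in the full fit, moved the same way in each case. The shift was thus not confined to the members. Each such fit leaves 1 array in a group, so its counts are not given here.

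AT5G28630, a glycine-rich protein gene, had the deepest dTLec fall of the 9 members that passed. Its log2 level was 6.79 and 6.47 in dTLec systemic leaves, against 8.03 and 7.88 in dTLec control leaves. In the wild type it was 6.63 and 6.50 in systemic leaves, against 8.16 and 8.76 in control leaves. Both genotypes thus ended at nearly the same low level. The dTLec log2 difference was −1.33 ± 0.20 (limma adjusted p 0.0442, and 0.0799 with the replicate block), which is 69.9% of the wild-type difference of −1.90. Here and below, a value after ± is limma's SE unless marked SD. That SE rests on a spread shared by all 4 groups of 2 arrays, so the wild-type arrays enter it too.

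AT4G10910 kept the largest part of its wild-type difference among the named genes that passed. It had 5.70 and 5.57 in dTLec systemic leaves, against 6.59 and 6.67 in dTLec control leaves. The wild-type arrays gave 5.22 and 5.09 in systemic leaves, against 6.18 and 6.36 in control leaves. The arrays of systemic and control leaves were well apart in both genotypes, and dTLec was a little higher throughout. It fell by 1.00 ± 0.10 on the log2 scale in dTLec (SE, limma adjusted p 0.0209, and 0.0548 with the block), or 89.2% of the wild-type −1.12. AT1G70740, a protein kinase gene, had 5.12 and 4.96 in dTLec systemic leaves, against 5.68 and 5.82 in dTLec control leaves, a fall of 0.70 ± 0.09 (limma adjusted p 0.0355, and 0.0929 with the block). That is 54.2% of its wild-type −1.30.

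The other 6 members that passed in dTLec have no gene name here. The difference of 247444_at was −1.01 in dTLec and −1.37 in the wild type (dTLec limma adjusted p 0.0209, and 0.0477 with the block). Its arrays read 7.25 and 7.12 in dTLec systemic leaves, against 8.12 and 8.28 in dTLec control leaves. The remaining 5, which were 259737_at, 254256_at, 265869_at, 264482_at and 263443_at, had dTLec differences between −0.88 and −0.57, with limma adjusted p between 0.0389 and 0.0491. With the block their adjusted p lay between 0.0903 and 0.139. GSTU27, a glutathione transferase gene, just missed the threshold in the same test, with a dTLec difference of −0.91 beside −1.04 in the wild type.

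**Figure D2:**
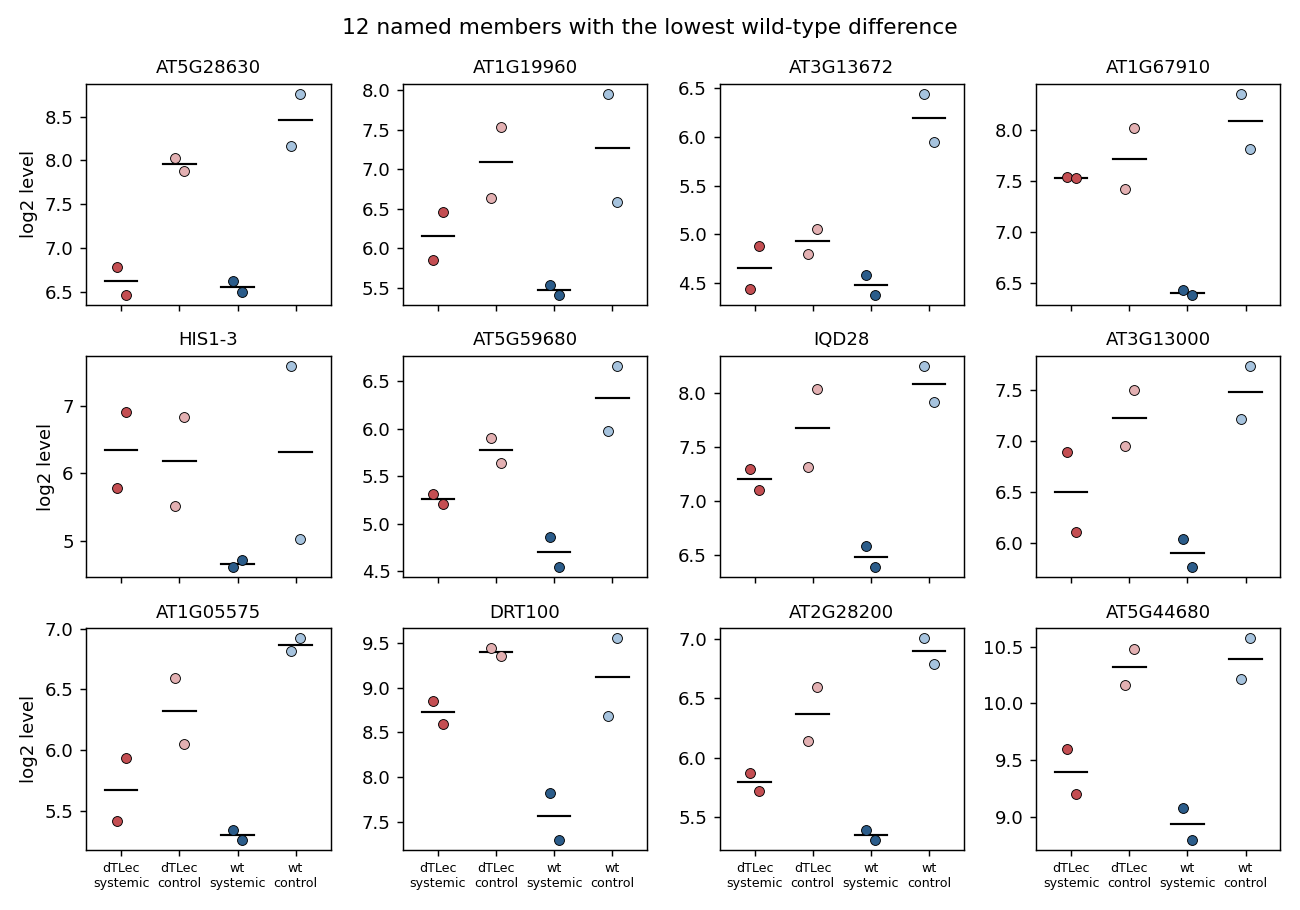
Each panel gives the log2 level of 1 of the 12 named members with the lowest wild-type difference, as 1 point per array and a bar at the mean of the 2 arrays of a group. The mean of wild-type systemic leaves is the lowest of the 4 in all 12 panels, and in AT5G28630 the dTLec systemic leaves lie beside it at 6.79 and 6.47.

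How much of the wild-type difference was kept varied widely between members. Expressed as the dTLec difference in percent of the wild-type difference, the median was 40.5%, with quartiles of 25.4% and 54.2%. The share was under 0 for 10 members, 0 to 25% for 24, 25 to 50% for 62, 50 to 75% for 35, 75 to 100% for 5 and above 100% for 1. The ratio of the median dTLec difference to the median wild-type difference was 41.6%. It was 26.9% without wild-type control replicate 2 and between 35.1% and 49.1% without any other single array. Since the wild-type difference chose the members, the choice favours large wild-type values and lowers these shares. Members with a gene name had a median of 41.4% and those without one 36.1%. The wild-type and dTLec differences were only weakly related across members (Spearman correlation 0.176, Pearson 0.122). Members at or below −1.5 in the wild type ranged from −1.33 to 0.67 in dTLec. The median dTLec difference was −0.57 for the 19 members at or below −1.5 in the wild type, −0.51 for the 37 next and −0.45 for the 81 above −1.2.

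**Figure D3:**
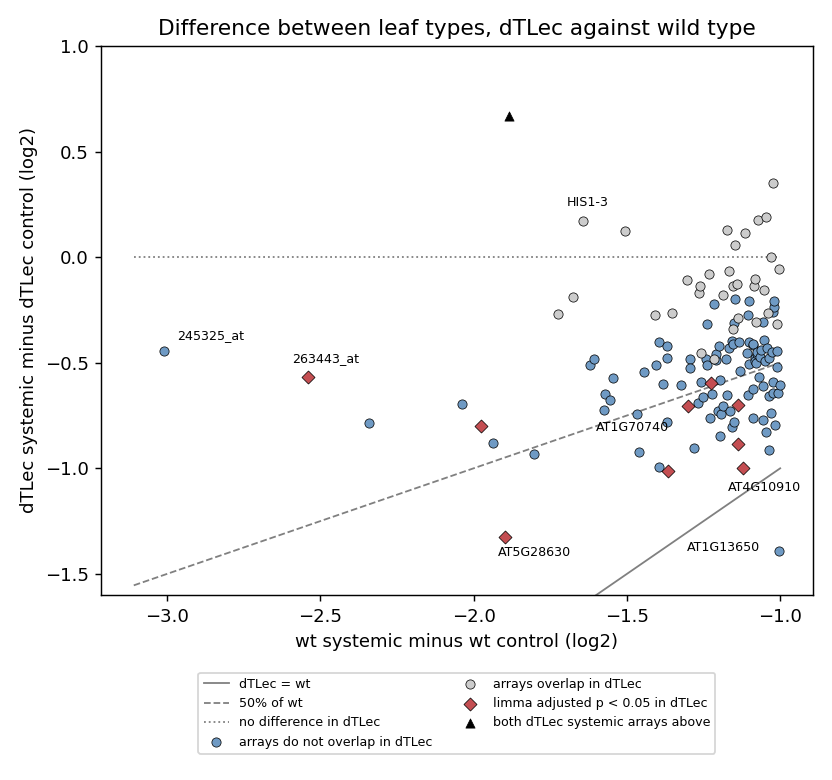
Each point is 1 of the 137 members, with the wild-type log2 difference between systemic and control leaves on the x axis and the dTLec difference on the y axis. Lines mark dTLec equal to the wild type, 50% of it and 0. The 9 members past the adjusted threshold in dTLec are diamonds, 127 members lie below 0, and the triangle is the member whose dTLec systemic arrays are both above its dTLec control arrays.

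The gap between the genotypes sat more in systemic than in control leaves. Over the members, dTLec systemic leaves were a median of 0.56 above wild-type systemic leaves, against 0.03 over all probe sets. In control leaves the median gap, dTLec minus wild type, was −0.16, and 105 of 137 members were lower in dTLec (47.3% of all probe sets were). The systemic gap was the larger for 102 of 137 members. The wild-type arrays that chose the members enter both gaps, so no test is given.

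The 3 lowest wild-type differences were in probe sets without a gene name, and in all 3 the dTLec systemic arrays lay above the wild-type systemic arrays. For 245325_at the log2 level was 9.31 and 8.83 in dTLec systemic leaves, against 9.43 and 9.61 in dTLec control leaves. The wild type had 5.85 and 5.78 in systemic leaves, while its control arrays averaged 8.82 ± 0.26 (SD, n = 2). The dTLec systemic arrays thus lay near the control arrays of both genotypes, with a dTLec difference of −0.45 beside −3.01 in the wild type. For 263443_at the levels were 8.72 and 8.65 in dTLec systemic leaves, against 9.15 and 9.35 in dTLec control leaves, a fall of 0.57 ± 0.09 (SE, limma adjusted p 0.0491, and 0.139 with the block). In the wild type they were 7.11 and 7.02 in systemic leaves, against 9.62 and 9.59 in control leaves. Both genotypes kept their groups apart here, at 22.4% of the wild-type size in dTLec. The third, 260221_at, had differences of −0.78 in dTLec and −2.34 in the wild type, with an adjusted p of 0.0880 in dTLec (limma).

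A smaller set of members was already low in dTLec control leaves. For 12 members the dTLec control mean lay below the midpoint of the wild-type systemic and control means. AT3G13672 (SINA2), a gene of the seven-in-absentia family of ubiquitin ligases, had 4.43 and 4.88 in dTLec systemic leaves, against 4.80 and 5.05 in dTLec control leaves. In the wild type it had 4.57 and 4.37 in systemic leaves, against 6.45 and 5.95 in control leaves. The high level in wild-type control leaves thus stood apart from the other 6 arrays. The dTLec difference was −0.27 ± 0.21 (limma adjusted p 0.566), or 15.6% of the wild-type −1.72. The probe set 265837_at had 5.81 and 6.46 in dTLec systemic leaves, against 5.50 and 5.43 in dTLec control leaves, and was the member with both systemic arrays above both control arrays. Its dTLec difference of 0.67 did not pass (limma adjusted p 0.211), and its wild-type levels were 5.42 and 5.34 in systemic leaves, against 7.50 and 7.02 in control leaves. AT5G55450, a lipid transfer protein gene, had 6.94 and 7.01 in dTLec systemic leaves, against 7.41 and 6.54 in dTLec control leaves, a difference of 0.00. Its wild-type arrays read 6.90 and 6.83 in systemic leaves, against 7.45 and 8.33 in control leaves. The low dTLec control mean rested on replicate 2, as replicate 1 lay near wild-type control replicate 1. AT5G55450 no longer met the rule without wild-type systemic replicate 2 or without wild-type control replicate 2.

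Among the members with a low share, HIS1-3 and AT2G38790 rested on uneven replicates. HIS1-3, a linker histone gene known to be induced by drought, had 5.79 and 6.90 in dTLec systemic leaves, against 5.51 and 6.84 in dTLec control leaves. Its wild-type levels were 4.61 and 4.72 in systemic leaves, against 7.59 and 5.03 in control leaves. Only wild-type systemic leaves were low on both arrays, and without wild-type control replicate 1 it no longer met the rule. The dTLec difference was 0.17 ± 0.82 (limma adjusted p 0.940), and this SE takes in the uneven wild-type control arrays. AT2G38790 was the named member with the highest dTLec difference, 0.35 ± 0.38 (limma adjusted p 0.699), with 6.35 and 7.37 in dTLec systemic leaves, against 6.45 and 6.57 in dTLec control leaves. The 3 other named members with the highest dTLec values were AT1G49200, a RING-type protein gene, at −0.06, AT5G14450, a GDSL lipase gene, at −0.08, and AT1G64360 at −0.16. Their limma adjusted p lay between 0.840 and 0.885. AT1G49200 and AT5G14450 were measured more evenly over the 8 arrays, with an SE of 0.16 and 0.18 for the dTLec difference.

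By what their products are known to do, 42 of the 68 loci could be sorted into 7 roles, and the other 26 were given none. This sorting was made with the values known, so the groups are described without a test. Kinases, hydrolases (with a pectate lyase counted among them), metabolic enzymes and DNA or RNA binding proteins were each represented by 7 genes. The kinases kept the largest median share.

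The 7 protein kinase genes, which encode receptors or cytoplasmic kinases that pass on signals, had a narrow range in dTLec. Their dTLec differences ran from −0.78 to −0.51, with a median of −0.71, and their wild-type differences had a median of −1.23. For all 7 both dTLec systemic arrays lay below both dTLec control arrays, as for 75.9% of the members and 25.4% of all probe sets, and the median share kept was 59.5%. AT5G59680, a leucine-rich-repeat receptor kinase gene, had the lowest wild-type difference of them, −1.62, and a dTLec difference of −0.51 ± 0.22 (limma adjusted p 0.314). AT3G13690, AT1G54820, AT1G56720 and AT5G51560 had dTLec differences between −0.78 and −0.71, and AT4G01330 had −0.64. Of the 7, AT1G70740 passed the test in dTLec.

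**Figure D4:**
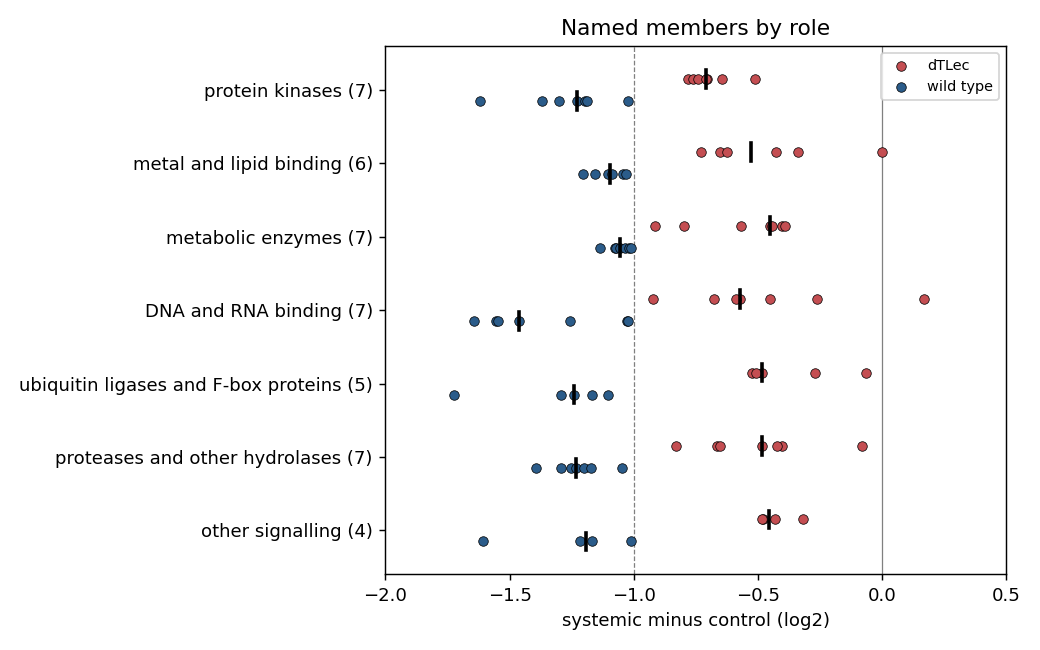
Points are the named members of 7 roles, with the number of probe sets in brackets, placed by the log2 difference between systemic and control leaves in dTLec (upper row of each role) and in the wild type (lower row). Black bars are medians and the dashed line is the rule's threshold of −1. The dTLec differences of the 7 kinase genes lie together between −0.78 and −0.51.

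Genes of DNA and RNA binding proteins held the deepest median wild-type difference of the roles, −1.46, beside −0.57 in dTLec. AT5G44680, which encodes a protein of the DNA glycosylase family, had 9.60 and 9.20 in dTLec systemic leaves, against 10.16 and 10.48 in dTLec control leaves. The wild type had 9.07 and 8.80 in systemic leaves, against 10.22 and 10.57 in control leaves. The leaf types were apart in both genotypes, and the dTLec difference was −0.92 ± 0.19 (limma adjusted p 0.0910), 63.2% of the wild-type −1.46. A second gene of that family, AT3G12710, had −0.26 in dTLec and −1.02 in the wild type. DRT100, named for DNA-damage repair and toleration, was sorted here too, and whether its product binds DNA was not checked. It had 8.85 and 8.60 in dTLec systemic leaves, against 9.45 and 9.35 in dTLec control leaves. Its difference was −0.68 ± 0.28 (limma adjusted p 0.297). The C2H2 zinc finger gene AT2G28200 had differences of −0.57 in dTLec and −1.55 in the wild type. BZIP61, a bZIP transcription factor gene, had −0.59 and −1.26, and AT3G51950, a CCCH zinc finger gene, −0.45 and −1.03, in the same order.

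The role called hydrolases here included proteases, lipases and wall enzymes. The pectate lyase gene AT4G24780 was sorted with them, although a lyase is not a hydrolase. The values below are for the role as sorted. The dTLec differences of this role ran from −0.83 to −0.08 with a median of −0.48, beside a wild-type median of −1.23. AT4G24780, a pectate lyase gene whose product cuts the pectin of cell walls, had 9.63 and 9.15 in dTLec systemic leaves, against 10.06 and 10.02 in dTLec control leaves. The wild type had 8.91 and 9.10 in systemic leaves, against 10.02 and 10.34 in control leaves. Control leaves of the genotypes were thus nearly level and the dTLec difference was −0.65 ± 0.17 (limma adjusted p 0.142). The chitinase gene AT1G02360 had −0.66 in dTLec and −1.25 in the wild type, and the cysteine protease gene AT3G19400 had −0.83 and −1.05, in that order. AT1G66180, an aspartyl protease gene, was tightly measured, with 8.75 and 8.74 in dTLec systemic leaves, against 9.10 and 9.20 in dTLec control leaves. Its difference of −0.40 ± 0.07 (limma adjusted p 0.0667) was 28.9% of the wild-type −1.40.

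Metabolic enzymes were close to the rule's edge in the wild type, with a median of −1.05, and had a dTLec median of −0.45. Both dTLec systemic arrays lay below both dTLec control arrays for all 7, beside the same 75.9% of members and 25.4% of all probe sets. That order also held for 6 of 7 probe sets each among DNA and RNA binding proteins and hydrolases. It held for 4 of 6 metal and lipid binding, 3 of 5 ubiquitin ligase and F-box, and 2 of 4 other signalling probe sets. Besides GSTU27, AT1G75960, of the AMP-dependent synthetase and ligase family, had a dTLec difference of −0.80, and the tropinone-reductase-like genes AT1G07440 and AT2G29310 had −0.57 and −0.45. DPE1, the plastid disproportionating enzyme of starch breakdown, had −0.39 in dTLec and −1.05 in the wild type. Its levels were 7.25 and 6.84 in dTLec systemic leaves, against 7.34 and 7.54 in dTLec control leaves.

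The genes of 5 ubiquitin ligases and F-box proteins, which mark other proteins for degradation, had a dTLec median of −0.48 and a wild-type median of −1.24. Beside SINA2 and AT1G49200 they were the F-box genes AT3G23880 (−0.52 in dTLec) and AT4G00755 (−0.48) and the ligase gene LUL4 (−0.51). The metal and lipid binding proteins had a dTLec median of −0.53. Within that role the 2 probe sets of AT5G50740, a heavy-metal-associated domain gene, gave alike values, −0.73 and −0.62 in dTLec.

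The last role took in 4 other signalling genes. STOMAGEN encodes a secreted peptide that raises the number of stomata. It had 8.18 and 7.20 in dTLec systemic leaves, against 8.21 and 8.14 in dTLec control leaves. The wild type had 6.45 and 6.71 in systemic leaves, against 7.40 and 8.19 in control leaves. The dTLec arrays overlapped, and the difference of −0.48 ± 0.35 did not pass (limma adjusted p 0.533). Its neighbour AT4G12980 had −0.51 in dTLec and −1.24 in the wild type. IQD28, of a family of calmodulin-binding proteins that associate with microtubules, had 7.29 and 7.10 in dTLec systemic leaves, against 7.32 and 8.04 in dTLec control leaves. Its difference of −0.48 ± 0.23 (limma adjusted p 0.361) compares with −1.61 in the wild type. The remorin gene AT5G23750 had −0.32 and the TIR-domain immune receptor gene AT3G04210 had −0.43 in dTLec.

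Of the 12 named members with the lowest wild-type differences, 4 had no role assigned besides AT5G28630. AT1G19960 had dTLec and wild-type differences of −0.93 and −1.80, AT3G13000 of −0.72 and −1.57, AT1G05575 of −0.65 and −1.57, and AT1G67910 of −0.19 and −1.68. None of these 4 passed in dTLec, with limma adjusted p between 0.201 and 0.728. AT1G13650 was the member with the lowest dTLec difference, −1.39 ± 0.46. It was the only member whose difference between systemic and control leaves was lower in dTLec than in the wild type. It had 6.69 and 5.62 in dTLec systemic leaves, against 7.55 and 7.54 in dTLec control leaves, and did not pass (limma adjusted p 0.208). Its wild-type arrays read 6.91 and 6.65 in systemic leaves, against 7.12 and 8.46 in control leaves, so the arrays of replicate 2 carried much of the difference in both genotypes.

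The members were also set beside gene lists gathered by symbol. The match went by symbol or synonym, so some lists hold genes that only share letters with their theme, such as plastid ribosomal genes among immune genes and cyclophilins among cytochrome P450 genes. The totals over the 302 genes measured by name are therefore counts over matched names and not over pathways. In dTLec 1 of them passed as lower (0.331%, against 0.18% of all probe sets) and 1 as higher (0.331%, against 0.488%), and neither passed with the replicate block. In the wild type 20 passed as lower (6.62%, against 6.03%) and 33 as higher (10.9%, against 5.91%). The 20 became 12 with the replicate block. Fewer also passed with either wild-type systemic array or the second wild-type control array left out. Of the 20, IQD28 and SINA2 were members.

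IQD and microtubule proteins went both ways, with 3 of 23 genes lower in the wild type and 3 higher. Beside IQD28, the tubulin gene TUB5 had differences of −0.56 in dTLec and −0.95 in the wild type. TUB6, another tubulin gene, had −0.17 and −0.49 in that order, and its wild-type call was lost with the block (limma adjusted p 0.0530). IQD23, from the same family as IQD28, had positive differences of 1.34 in dTLec and 2.36 in the wild type. Its dTLec call was lost with the block (limma adjusted p 0.0302, and 0.0592 with the block), while its wild-type call was kept (0.000845, and 0.00178 with the block). Of 29 wall-loosening genes 3 passed as lower in the wild type, which were EXPA8 and XTH33, left out of the members, and EXPB1, an expansin gene, at −0.79 in dTLec and −0.88 in the wild type. As many passed as higher, with wild-type differences of 1.54 for XTH18, 1.23 for EXPA16 and 1.22 for XTH32. The lower counts of both lists rested on single arrays. They fell without the second wild-type systemic array and rose without the first wild-type control array. AT5G61590 (DEWAX), which encodes a repressor of wax synthesis, had differences of −0.67 in dTLec and −0.85 in the wild type. Its dTLec call was lost with the block (limma adjusted p 0.0289, and 0.0819 with the block), and its wild-type call was kept (0.00188, and 0.00627 with the block).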

How the data were processed

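Leaf RNA of 8 samples was measured on 1 ATH1 array each. The deposited values are log2 levels per probe set, and RMA and Partek are named in the submitters' processing notes, without roles or versions. No genome build is stated for them. The difference between replicate numbers had already been removed by the time of deposit: at no probe set did the means of replicates 1 and 2 differ by more than 7.5e-05. Group means are unaffected, but p-values without a block are too small. Deviations of same-numbered arrays therefore correlated negatively, between −0.579 and −0.132, so the numbers were not taken as pairs.

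Array controls (64 of 22810 probe sets) were left out. Group means were fitted with limma over all 8 arrays, without a filter on low levels, and p-values were adjusted by Benjamini-Hochberg over 22746 probe sets. The fit was tested on simulated arrays. For members only the dTLec difference counts as a test, since wild-type arrays chose them and their wild-type calls are a description. The spread behind that test was estimated over all 8 arrays. The choice by wild-type arrays can therefore also bear on the dTLec p-values, though not on the dTLec differences. Listed genes were tested in both genotypes. Gene names come from the platform's probe annotation and TAIR10.1. Members and gene lists were chosen with earlier results of these data known, and roles after their values were seen. Named genes were the 12 members with the lowest wild-type difference, those that passed in dTLec, the 6 with the highest dTLec difference and those on a gene list matched by symbol or synonym. Others are named as examples of a role. Alternatives changed the normalization, filter, fit, block, threshold and arrays. No promoter sequence was used here.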

Additional observations from a re-analysis of the deposited data

Results flagged for a closer look

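The dTLec and wild-type differences of 263443_at were far apart, with dTLec minus wild type at 1.97 on the log2 scale. The wild-type arrays that enter this value also chose the member, so it is given without a test. For 265837_at both dTLec systemic arrays lay above both dTLec control arrays, with a log2 difference of 0.67, while both wild-type systemic arrays lay below both wild-type control arrays. No test between the genotypes is given there either, since the wild-type arrays chose this member too.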

How the results depend on the processing

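The number of members that passed as lower in dTLec was 9, beside 41 of all probe sets. It was 1 with the replicate block, beside 1 of all, and 16 with the dTLec arrays fitted alone, beside 57 of all. Neither the member count nor the count over all probe sets was kept with 1 array left out. The number of members, 137, ranged from 129 to 207 with 1 array left out, and was 56 at a threshold of −1.2 and 297 at −0.8. The number with both dTLec systemic arrays below both control arrays, 104 of 137, was 43 of 56 and 229 of 297 at those thresholds. With 1 wild-type array left out it ranged from 87 of 156 to 167 of 207 members chosen anew. The share of all probe sets was 25.4% in each of these cases. With a dTLec array left out fewer arrays are compared, and the order held for 36.9% to 40.9% of all probe sets. The 20 listed genes lower in the wild type became 12 with the replicate block and 4 to 24 with 1 array left out. The median dTLec difference stayed between −0.57 and −0.32 with 1 array left out. Values near 0 that had not passed changed sign when 1 array was left out: HIS1-3 ranged from −0.49 to 0.83, AT5G55450 from −0.44 to 0.44, AT2G38790 from −0.16 to 0.85, AT1G67910 from −0.49 to 0.12, AT5G14450 from −0.30 to 0.13, AT1G64360 from −0.39 to 0.0751 and AT1G49200 from −0.17 to 0.0422. The causes were not tested. With 2 arrays a group, small differences are not resolved.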
